A study of Homo sapiens with 6 samples.

Results

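Amino acid transporter transcripts of 7 solute carrier (SLC) families were examined in the A375 line, which was established from a human melanoma and carries an activating BRAF mutation. The members were all genes whose symbol was SLC1A, SLC3A, SLC6A, SLC7A, SLC36A, SLC38A or SLC43A followed by a number, which gave 53 of the 16934 genes counted. SLC6 held 14 members, SLC7 held 13, SLC38 held 11, SLC1 held 7, SLC36 and SLC43 held 3 each and SLC3 held 2. A member, SLC7A6OS, is not a transporter but the gene on the opposite strand of SLC7A6, and it was kept because the rule takes it. RNA was sequenced from 3 libraries of cells given a non-targeting control sgRNA and 3 libraries of cells given an sgRNA against POLK, the gene of the error-prone DNA polymerase kappa. Both groups went through the same Alt-R CRISPR-Cas9 procedure and were grown in DMEM with 2 mM glutamine, 10% heat-inactivated fetal bovine serum, penicillin and streptomycin. The labels do not say whether the edited cells were a clone or a pool, or whether a group's 3 libraries stem from different cultures, so p-values set the difference against a spread that may be technical. Beyond POLK editing, differences between the edited populations cannot be told apart from the effect of the sgRNA.

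Amino acid transporters bring nutrients into the cell by exchange or by coupling to sodium, chloride or protons. Exchangers of the SLC7 family work as pairs with a heavy chain of the SLC3 family, whereas SLC1 and SLC38 carriers accumulate glutamine, alanine and serine, which exchangers then trade for leucine and other essential amino acids. Leucine, arginine and glutamine inside the cell and the lysosome set the activity of the growth kinase complex mTORC1. When amino acids run short, the transcription factor ATF4 is translated and induces many transporter genes together with enzymes of amino acid synthesis.

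Total counts were 42852645 to 56891905 per library, and the members took 0.267 to 0.289% of them. POLK was lower in the cells that received its sgRNA, at 19.2, 17.2 and 18.1 counts per 1000000 (CPM) in its 3 libraries against 23.4, 24.0 and 22.4 CPM in control libraries, or 18.2 ± 1.003 against 23.3 ± 0.842 CPM (SD, n = 3 libraries here and throughout). The melanocyte lineage genes SOX10, S100B and MITF rose, from 1060 ± 12.5 to 1155 ± 28.99, from 69.8 ± 4.98 to 88.6 ± 0.217 and from 28.3 ± 0.0428 to 32.9 ± 1.23 CPM. The pigment genes PMEL, MLANA, DCT and TYR averaged under 1 CPM in both groups. PMEL rose with groups that overlapped (0.402 and 0.688 CPM). MLANA (0.486 and 0.316 CPM) and DCT (0.517 and 0.207 CPM) did not pass, and TYR was not tested. Control library 1 held 64 counts of DCT and 19 of TYR, while control libraries 2 and 3 held 2 and 1 of DCT and 0 of TYR. Of the leukocyte genes, PTPRC, CD3E and ITGAM averaged at most 0.0311 CPM in either group, although the summed list was higher with the POLK sgRNA (58.1 to 60.2 against 17.4 to 17.6 CPM) through CD68 and LYZ. Other marker sums also differed: epithelial genes had 99.8 to 101.8 CPM in control and 148.7 to 154.2 CPM in POLK sgRNA libraries. That difference came through KRT18 (82.9 and 126.5 CPM) and KRT8 (17.8 and 23.8 CPM). EPCAM (0.202 and 0.311 CPM) did not pass, and CDH1 (0.0755 and 0.0473 CPM) was not tested. Endothelial genes had 2.93 to 3.90 and 5.57 to 6.04 CPM, with KDR, PECAM1 and VWF higher and CDH5 (0.361 and 0.0343 CPM) lower. Fibroblast genes had 8.75 to 11.1 and 12.4 to 13.7 CPM and moved both ways. LUM (0.423 and 4.50 CPM) and DCN (0.0902 and 1.11 CPM) were higher. PDGFRA (4.57 and 2.66 CPM) and COL1A2 (0.717 and 0.333 CPM) were lower, and COL1A1 overlapped between the groups. Neuronal genes had 5.44 to 5.83 and 4.78 to 5.64 CPM. The part of other cell types in the results was not tested. Most of the transcriptome differed between the groups: 64.3% of the 13930 genes tested passed edgeR's quasi-likelihood test at an adjusted p of 0.05, 32.8% higher and 31.6% lower with the POLK sgRNA.

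Among the members, 14 rose and 12 fell, the latter including SLC7A6OS. Enough counts for a test were present in 33 of the 53 members, and 26 of these (78.8%) passed, beside the 64.3% of all genes. Carriers of cystine (SLC7A11), branched-chain amino acids (SLC6A15), glycine (SLC6A9), glutamine and serine (SLC1A5 and SLC1A4) and arginine (SLC7A1) rose, whereas the sodium-coupled carriers SLC38A1 and SLC38A2, the glutamate carrier SLC1A1 and the exchanger SLC7A6 fell. The median log2 fold change of the tested members was 0.03, beside 0.01 for all genes tested. The median size of the change, whatever its direction, was 0.32 for members and 0.18 for all genes tested. In 26 members the libraries of the groups did not overlap, 14 higher and 12 lower, beside 67.7% of all genes tested (34.6% higher and 33.1% lower). Tested against a minimum change of 1.5-fold with edgeR's glmTreat, 4 members passed, SLC6A15 and SLC7A11 higher and SLC1A1 and SLC38A4 lower (12.1%, beside 9.25% of all genes tested, 5.38% higher and 3.86% lower). SLC7A11, SLC6A15 and SLC38A4 lost this call under some settings, as given with each gene. The count filter kept SLC38A4 only through the control libraries, where it was higher, so its call is no independent support. By family, 5 of 8 tested SLC7 members rose and 2 fell, 3 of 5 SLC1 members rose and 1 fell, and 1 of 8 SLC38 members rose and 5 fell. In SLC6, 2 of 6 rose and 2 fell, in SLC43, 2 of 3 rose and 1 fell, in SLC36, 1 of 2 fell, and SLC3A2 rose as the only SLC3 member tested. The members' summed level was 2720 ± 23.9 CPM in control and 2793 ± 74.8 CPM in POLK sgRNA libraries. The groups nearly touched, with 2743 CPM in the highest control library and 2748 CPM in the lowest POLK sgRNA library. POLK sgRNA library 1 stood above the rest at 2879 CPM.

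**Figure D1:**
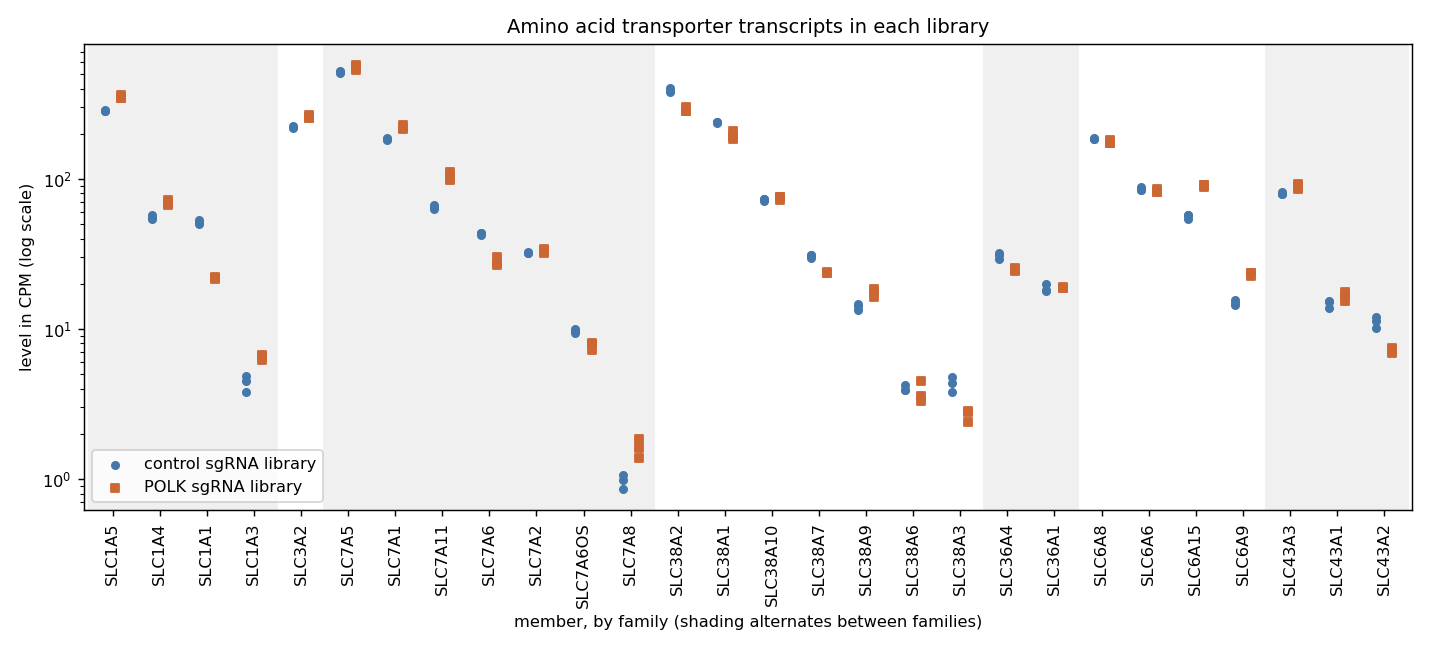
Level of the 28 members with a mean of at least 1 CPM in each library, on a log axis, by family and by level within a family; circles are control sgRNA libraries and squares POLK sgRNA libraries. The groups stand apart for most members, with SLC1A1 lower and SLC7A11, SLC6A15 and SLC6A9 higher in all 3 POLK sgRNA libraries.

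Libraries of a group differed little in these genes. Over the 28 members with a mean of at least 1 CPM, the median coefficient of variation was 3.1% in control and 3.84% in POLK sgRNA libraries. It was highest for SLC1A3 in control (12.5%) and for SLC38A6 in POLK sgRNA libraries (16.5%), both low genes. POLK sgRNA library 1 was the highest of its group for 18 of the 28 members. Without that library 13 members rose and 12 fell.

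Transporters known to be induced by ATF4 were mostly higher. Of 9 such genes, 8 were tested, 7 rose and SLC38A2 fell, and the median of their log2 fold changes was 0.28. Over all genes tested, 32.8% rose and 31.6% fell. The 7 that rose were SLC7A11, SLC6A9, SLC1A4, SLC1A5, SLC7A1, SLC3A2 and SLC7A5, in order of the change from 0.67 to 0.11. ATF4 itself rose from 231 ± 5.36 to 332 ± 10.8 CPM. The remaining gene, SLC7A3, was too low to be tested.

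The composite element that ATF4 binds with C/EBP proteins was looked for in the promoters of the members, because 7 known ATF4 targets among them moved the same way. Promoter windows of RefSeq (GRCh38.p14), from 250 bases before to 50 bases after a gene's start, were at hand for 41 members. The 12 members without one, among them SLC7A11, SLC6A15, SLC38A3, SLC43A3, SLC6A6, SLC7A2 and SLC7A3, were not searched. Written TGATGNAA and searched on both strands, the element was found in 6 members, of which 5 rose and 1 fell. Each match is shown here with the bases around it, 5′ to 3′ on the gene's strand, with the 8 matching bases in capitals. In SLC1A4 and SLC3A2 the match lies on the other strand, so the capitals read as its reverse complement.
SLC1A4: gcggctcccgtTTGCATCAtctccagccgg
SLC1A5: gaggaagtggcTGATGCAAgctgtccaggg
SLC1A3: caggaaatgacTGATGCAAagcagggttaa
SLC3A2: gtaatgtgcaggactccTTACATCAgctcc
SLC7A1: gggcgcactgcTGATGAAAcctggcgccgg
SLC38A1: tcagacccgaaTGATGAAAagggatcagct
These stretches lie at chr2:64989381-64989410 (plus strand), chr19:46784893-46784922 (minus), chr5:36596357-36596386 (plus), chr11:62881719-62881748 (plus), chr13:29595663-29595692 (minus) and chr12:46266502-46266531 (minus), in the order printed. Read on the strand of the match, SLC1A4, SLC1A5 and SLC1A3 share the same 8 bases, and SLC7A1 and SLC38A1 share another form. Counted from the start that defines each window, where a gene may have several, the SLC1A4 match begins 7 bases before the start, the SLC1A5 match 97 before and the SLC1A3 match 220 before. The SLC7A1 and SLC3A2 matches begin at bases 8 and 38 of the transcript, and that of SLC38A1 begins 4 bases before the start. Of all windows, 3.62% hold the element, against 5 of 26 windows of the members that rose (19.2%) and 1 of 16 windows of those that fell (6.25%). The 26 windows came from 11 genes, and so did the 16. Among the members that rose with a match, SLC1A4, SLC1A5, SLC3A2 and SLC7A1 are on the list of known ATF4-induced transporters that prompted the search. Their matches therefore give no independent support. A match is a run of letters and not a measured site.

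The other motifs searched also had higher shares in the windows of members that rose than in all windows. The E-box CACGTG, bound by MYC and by the lysosomal regulator TFEB, was present in 10 of the 41 members (15.9% of their windows). It was in 5 of 26 windows of members that rose (19.2%, the same share as the ATF4 element), among them SLC7A5, SLC1A5 and SLC43A1, and in 2 of 16 windows of members that fell (12.5%, SLC38A7 and SLC6A16), beside 7.26% of all windows. SLC36A1, which did not pass the test, also holds it. The core of the antioxidant response element, TGACNNNGC, bound by NRF2, was present in 7 of the 41 members (11.1% of their windows). It was in 6 of 26 windows of members that rose (23.1%) and 1 of 16 windows of members that fell (6.25%, SLC7A6), beside 13.3% of all windows. SLC3A2 and SLC7A1 hold it in the same window as the ATF4 element, and SLC1A3 and SLC1A5 in another window of the gene.

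Both chains of the most abundant heteromeric exchanger, SLC3A2 and SLC7A5, rose by small amounts, and the cystine exchanger SLC7A11 rose by more. SLC3A2 (chromosome 11, 62856102 to 62888875, plus strand) encodes the CD98 heavy chain that carries these exchangers to the cell surface. It measured 217, 221 and 226 CPM in control and 265, 255 and 253 CPM in POLK sgRNA libraries 1, 2 and 3, a log2 fold change of 0.22 (SE 0.02, edgeR adjusted p = 1.2e-09). SLC7A5 (chromosome 16, 87830023 to 87869488, minus strand), the light chain LAT1 that exchanges glutamine for leucine, was the most abundant member. Its control libraries held 521, 518 and 504 CPM and its POLK sgRNA libraries 573, 534 and 555 CPM. The groups did not overlap, but the change of 0.11 (SE 0.02, edgeR adjusted p = 0.00024) was the smallest among the members that rose. The annotation lists the pseudogenes SLC7A5P1 and SLC7A5P2, which can share its reads, so its value is uncertain.

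SLC7A11 (ENSG00000151012, chromosome 4, 138164097 to 138242349, minus strand) encodes xCT, which imports cystine for glutathione synthesis in exchange for glutamate. It rose from 65.0, 67.1 and 63.1 CPM in control to 110.5, 101.6 and 98.9 CPM in POLK sgRNA libraries, to 159% of control. All POLK sgRNA libraries stood well above all control libraries, and the log2 fold change was 0.67 (SE 0.04, edgeR adjusted p = 4.2e-13). Against a minimum of 1.5-fold it passed narrowly (glmTreat adjusted p = 0.033) and no longer did so without control library 1 (0.147), control library 3 (0.217) or POLK sgRNA library 1 (0.323), with DESeq2's size factors (0.0518), with genes of at least 1 CPM only (0.0543) or in DESeq2 (0.673), while the other settings gave 0.00114 to 0.0317. An antisense transcript, SLC7A11-AS1, shares 865 exon bases with it, and the library kit does not mark strand.

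The other light chains of CD98 moved both ways. SLC7A6, which exchanges arginine for glutamine, fell from 43.6, 42.0 and 43.4 CPM to 30.2, 27.6 and 26.5 CPM (log2 fold change −0.61, SE 0.04, edgeR adjusted p = 1.6e-14). Its exons share 3371 bases with those of SLC7A6OS, which fell from 9.70 ± 0.335 to 7.70 ± 0.427 CPM, and reads of this stretch cannot be told apart without strand. SLC7A8, which encodes LAT2, rose from 0.864, 0.989 and 1.06 CPM to 1.61, 1.39 and 1.84 CPM (0.73, SE 0.17, edgeR adjusted p = 0.00028), with groups that did not overlap. SLC7A7, a close relative of SLC7A6 below the level set for named members and named after its values were seen, had 0.514 ± 0.0820 and 0.779 ± 0.143 CPM. It passed in edgeR (adjusted p = 0.024) but not without control library 1 (0.0804), control library 2 (0.0749) or POLK sgRNA library 3 (0.136), nor in DESeq2 (0.126), and the range over the settings was 0.0188 to 0.136. SLC7A10 had 6 counts in all control and 3 in all POLK sgRNA libraries and was not tested. The summed level of the CD98 heteromer genes was 845 ± 6.66 CPM in control and 945 ± 31.3 CPM in POLK sgRNA libraries. SLC3A1, the other heavy chain, and its partner SLC7A9 were near absent, at no more than 3 counts in a group.

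Of the cationic amino acid carriers, the broadly expressed one rose. SLC7A1 (chromosome 13, 29509410 to 29595688, minus strand), which imports arginine and lysine, measured 187, 183 and 183 CPM in control and 230, 219 and 214 CPM in POLK sgRNA libraries. The groups were well apart, with a log2 fold change of 0.26 (SE 0.03, edgeR adjusted p = 5.6e-11). SLC7A2, its inducible relative, had 32.7, 31.8 and 31.9 CPM in control and 33.8, 34.04 and 32.3 CPM in POLK sgRNA libraries, which overlapped, and did not pass (edgeR adjusted p = 0.20). SLC7A3, a relative mostly known from brain, was not counted at all in control cells and had 14, 7 and 14 counts in the POLK sgRNA libraries. With 3 counts taken as the floor of the whole control group, it was at least 11.1-fold higher, at 0.227 ± 0.0699 CPM, a very low level that left it out of the edgeR test. Such floors cover counting error only.

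In the SLC1 family the neutral carriers rose and the main glutamate carrier fell by more than any other member above 1 CPM. SLC1A5 (chromosome 19, 46774883 to 46788594, minus strand), or ASCT2, takes up glutamine in exchange for other neutral amino acids. It rose from 286, 284 and 282 CPM to 360, 346 and 345 CPM, with a log2 fold change of 0.30 (SE 0.02, edgeR adjusted p = 1.2e-13). SLC1A4 (chromosome 2, 64988477 to 65023865, plus strand), or ASCT1, a carrier of serine, alanine and cysteine, rose from 57.1, 54.7 and 53.8 CPM to 72.6, 69.6 and 66.7 CPM (0.34, SE 0.03, edgeR adjusted p = 1e-10). Together these carriers had 339 ± 3.52 CPM in control and 420 ± 10.8 CPM in POLK sgRNA libraries. Antisense exons share 780 bases with SLC1A5.

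SLC1A1 (ENSG00000106688, chromosome 9, 4490444 to 4587469, plus strand) encodes EAAT3, which takes up glutamate, aspartate and cysteine. It had 50.3, 51.3 and 53.3 CPM in control libraries and 21.6, 22.1 and 21.7 CPM with the POLK sgRNA. The POLK sgRNA level was 42.2% of control, and the log2 fold change of −1.24 (SE 0.04) passed both the plain test (edgeR adjusted p = 2.3e-24) and that against 1.5-fold (glmTreat adjusted p = 2.5e-17). It was the only member to pass the latter under each of the 12 settings tried, from −1.27 to −1.23. SLC1A3, the glial glutamate carrier EAAT1, moved the other way from a lower level, from 4.53, 3.81 and 4.89 CPM to 6.74, 6.22 and 6.61 CPM (0.57, SE 0.09, edgeR adjusted p = 7.8e-07). SLC1A2 stayed at 0.325 ± 0.0735 and 0.295 ± 0.0903 CPM and did not pass. As a group, the glutamate carriers summed to 56.4 ± 1.79 CPM in control and 28.7 ± 0.161 CPM in POLK sgRNA libraries, a sum made mainly of SLC1A1.

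The sodium-coupled neutral carriers of systems A and N (SLC38) were lower in all 4 members tested, beside 31.6% of all genes tested. Of these, SLC38A1, SLC38A2 and SLC38A4 lie in 1 cluster on chromosome 12, so they may not vary independently. SLC38A2 (chromosome 12, 46358189 to 46372867, minus strand), or SNAT2, accumulates alanine, serine and glutamine and is induced by amino acid shortage in many cells. It measured 403.5, 386.5 and 379.3 CPM in control and 302.4, 282.2 and 281.5 CPM in POLK sgRNA libraries, a log2 fold change of −0.43 (SE 0.03, edgeR adjusted p = 2.4e-12). SLC38A1, or SNAT1, the neighbouring gene and a glutamine carrier, had 238.3, 237.5 and 237.2 CPM in control and 207, 193 and 184 CPM with the POLK sgRNA. Here the control libraries were nearly equal and the POLK sgRNA libraries more spread, and the change of −0.29 (SE 0.03) had an adjusted p of 7.4e-07 in edgeR. SLC38A4, the third system A gene of this cluster, had 59 counts over the control and 17 over the POLK sgRNA libraries. By library these were 14, 26 and 19 in control and 7, 4 and 6 with the POLK sgRNA. Only the control libraries met the filter's minimum count, so the filter favoured a fall. Named after its values were seen, SLC38A4 fell by 1.84 on the log2 scale (SE 0.37, edgeR adjusted p = 6.5e-05). It passed against 1.5-fold (glmTreat adjusted p = 0.0033) and not in DESeq2 (0.317), with the other settings at 0.00266 to 0.0285. SLC38A3, the system N carrier SNAT3, fell from 3.83, 4.34 and 4.77 CPM to 2.40, 2.80 and 2.86 CPM (−0.69, SE 0.11, edgeR adjusted p = 8.5e-07). SLC38A5, the other system N gene, had 16 and 24 counts per group and was not tested. The system A and N genes summed to 632 ± 12.5 CPM in control and 486 ± 23.0 CPM in POLK sgRNA libraries.

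**Figure D2:**
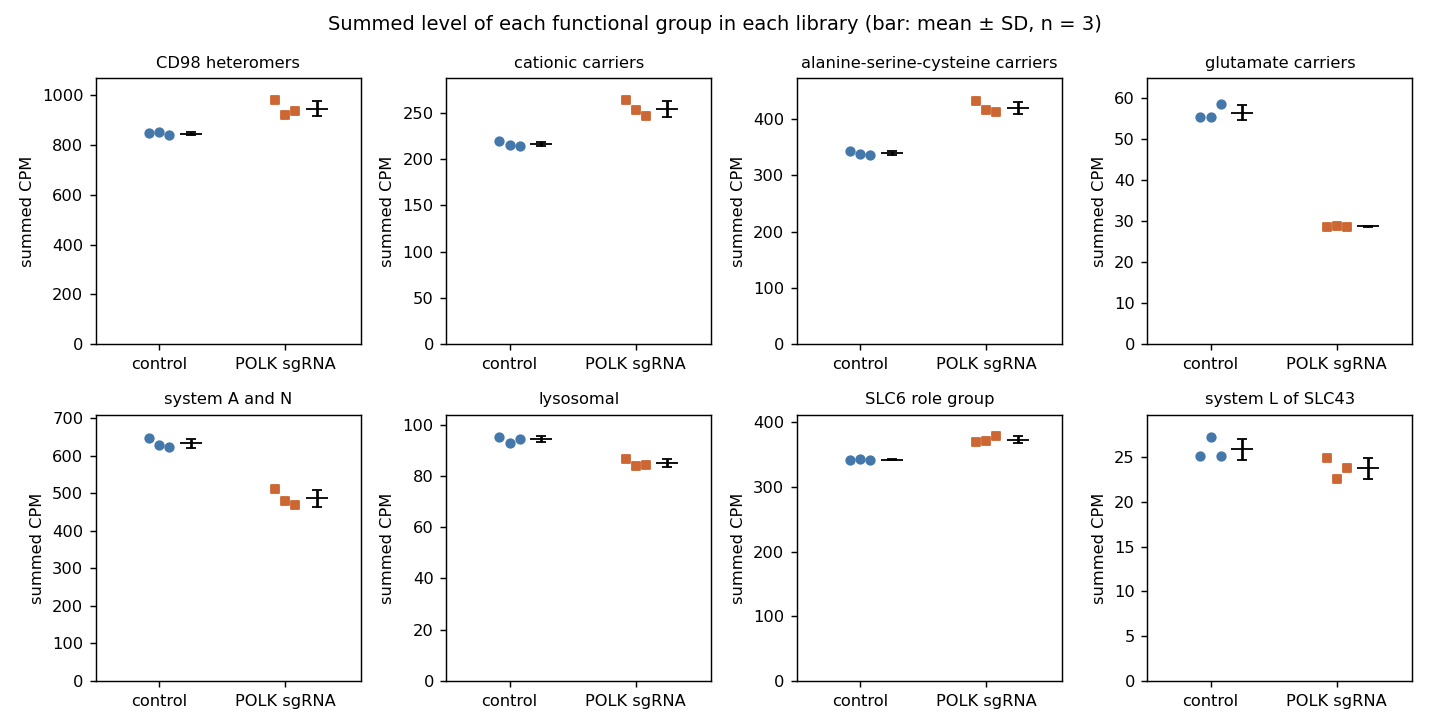
Summed CPM of each functional group in each library, with control sgRNA libraries as circles, POLK sgRNA libraries as squares and the mean ± SD (n = 3) as a bar. Alanine-serine-cysteine carriers went from 339 to 420 CPM and CD98 heteromers from 845 to 945 CPM, while systems A and N went from 632 to 486 CPM and glutamate carriers from 56.4 to 28.7 CPM.

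Carriers of the lysosome, where amino acid levels are read out to mTORC1, moved both ways. SLC38A9, the arginine sensor that acts on the Rag GTPases, rose from 13.3, 14.25 and 14.7 CPM to 18.5, 16.4 and 17.7 CPM (0.32, SE 0.05, edgeR adjusted p = 5.2e-06). SLC38A7, which exports glutamine and asparagine from lysosomes, fell from 31.1, 31.1 and 29.7 CPM to 23.6, 23.9 and 23.5 CPM (−0.37, SE 0.04, edgeR adjusted p = 7.5e-10). In the proton-coupled SLC36 family, SLC36A4 fell from 30.9, 29.4 and 32.1 CPM to 25.6, 24.7 and 24.3 CPM (−0.31, SE 0.04, edgeR adjusted p = 9.8e-08). SLC36A1, the lysosomal carrier PAT1, did not pass, at 20.1, 18.3 and 18.0 CPM in control and 19.0, 18.8 and 18.9 CPM in POLK sgRNA libraries (edgeR adjusted p = 0.86). The 2 remaining SLC38 members above 1 CPM, SLC38A10 and SLC38A6, did not pass either, with log2 fold changes of 0.03 and −0.09. The lysosomal group summed to 94.3 ± 1.19 CPM in control and 85.0 ± 1.57 CPM in POLK sgRNA libraries.

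The SLC6 family, which couples transport to sodium and chloride, held 2 members that rose by more than 0.6 on the log2 scale. SLC6A15 (ENSG00000072041, chromosome 12, 84859488 to 84913615, minus strand), a carrier of branched-chain amino acids and proline, had 57.4, 53.8 and 57.3 CPM in control and 90.6, 91.5 and 88.9 CPM in POLK sgRNA libraries. Its log2 fold change was 0.69 (SE 0.03, edgeR adjusted p = 9.2e-20). It passed against 1.5-fold (glmTreat adjusted p = 0.0028), but not without control library 2 (0.0946) or in DESeq2 (0.16), with the other settings at 0.000798 to 0.0181. SLC6A9, the glycine carrier GlyT1, rose from 14.4, 15.5 and 14.8 CPM to 22.7, 23.7 and 23.5 CPM (0.64, SE 0.05, edgeR adjusted p = 9.5e-14). It shares 404 exon bases with CCDC24 on the opposite strand.

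SLC6A8, the creatine carrier, was the most abundant SLC6 member, at 186, 185 and 184 CPM in control and 173, 173 and 181 CPM in POLK sgRNA libraries. This small fall of 0.07 on the log2 scale had an adjusted p of 0.0076 in edgeR and lost the call without POLK sgRNA library 2 (0.0518, the largest of a range that began at 0.00183). SLC6A6, the taurine carrier, did not pass, at 83.8, 87.6 and 84.6 CPM in control and 82.3, 82.3 and 85.1 CPM in POLK sgRNA libraries. SLC6A16, an orphan member with a mean below 1 CPM over all libraries and named after its values were seen, fell from 1.06 ± 0.206 to 0.572 ± 0.107 CPM (edgeR adjusted p = 0.00044). SLC6A20, a proline carrier, had 18 counts over the control and none over the POLK sgRNA libraries, at least 6.31-fold lower against the same floor of 3 counts.

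The SLC43 family holds facilitators of large neutral amino acids. SLC43A1, or LAT3, rose slightly, from 13.82, 15.35 and 15.10 CPM to 17.50, 15.39 and 16.88 CPM (0.17, SE 0.06, edgeR adjusted p = 0.0085). The closest libraries of the groups nearly touched, and the call was lost without control library 1 (0.0785) or POLK sgRNA library 1 (0.0734), with other settings down to 0.00219. SLC43A2, or LAT4, fell from 11.3, 11.9 and 10.1 CPM to 7.46, 7.22 and 6.88 CPM (−0.63, SE 0.07, edgeR adjusted p = 1.3e-09). SLC43A3, which carries nucleobases and not amino acids, rose from 79.4, 82.0 and 79.2 CPM to 92.7, 89.1 and 85.5 CPM (0.15, SE 0.03, edgeR adjusted p = 5e-05). A protein-coding gene model on the same strand shares 1349 exon bases with it.

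The 20 members that were not tested had at most 14 counts in any library. They were 8 SLC6, 5 SLC7, 3 SLC38, 2 SLC1, 1 SLC3 and 1 SLC36 genes, among them the GABA carriers SLC6A11, SLC6A12 and SLC6A13, the serotonin carrier SLC6A4 and the neuronal glutamate carrier SLC1A6. Among the tested members, SLC6A17 was at 0.272 ± 0.0535 and 0.280 ± 0.0757 CPM and did not pass.

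Levels were compared between members after division by exon length, as CPM per kilobase of exon. In control libraries SLC7A5 stood highest at 108 ± 1.94, followed by SLC1A5 at 85.2 ± 0.546, SLC38A2 at 59.0 ± 1.88, SLC3A2 at 42.8 ± 0.792 and SLC6A8 at 33.7 ± 0.143. These 5 did not overlap with their neighbours in the order. SLC7A1 and SLC38A1 followed at 24.0 ± 0.267 and 23.7 ± 0.0565, and their libraries overlapped. With the POLK sgRNA, SLC3A2 (49.7 ± 1.27) stood above SLC38A2 (43.7 ± 1.80) on this scale, and SLC1A5 reached 105 ± 2.45 beside SLC7A5 at 117 ± 4.04. SLC7A11 went from 6.74 ± 0.208 to 10.7 ± 0.629 and SLC1A1 from 12.9 ± 0.385 to 5.45 ± 0.0698. Exon lengths were taken over all annotated exons of a gene, so a gene with many unused exons is set too low.

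**Figure D3:**
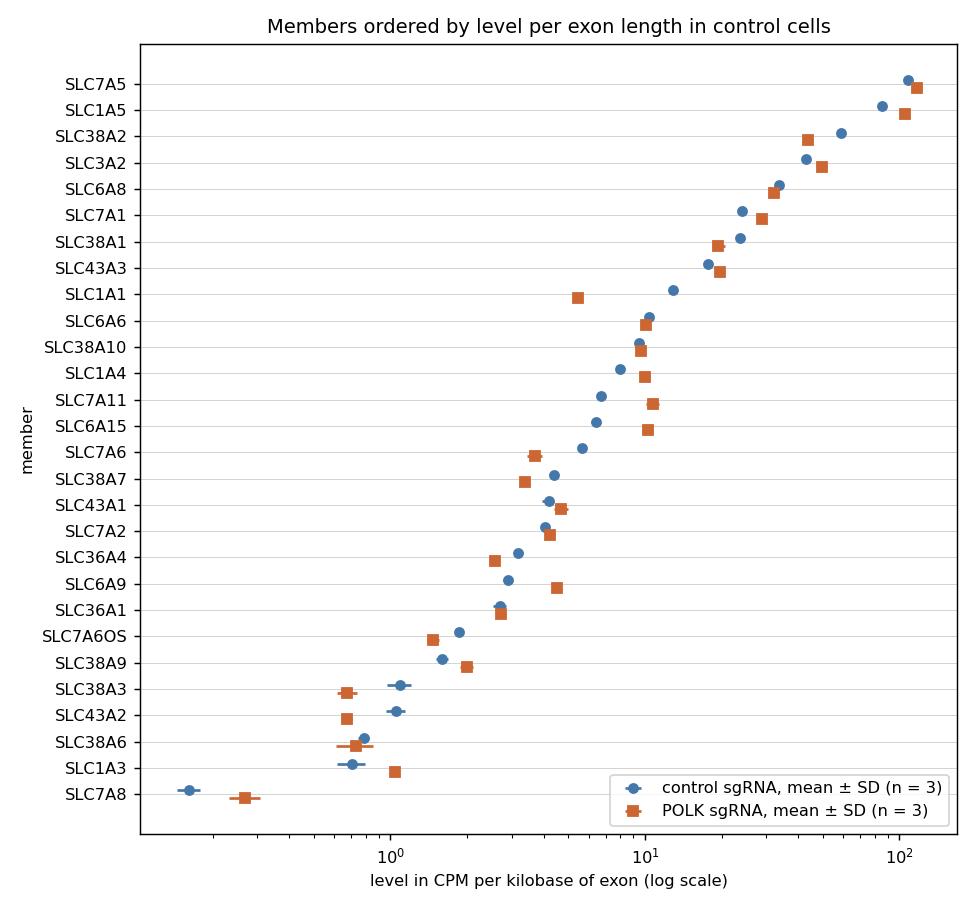
Mean level ± SD (n = 3) of the 28 members in CPM per kilobase of exon, on a log axis, ordered by the control level; circles are control sgRNA and squares POLK sgRNA. SLC7A5 and SLC1A5 lead in both groups, and SLC1A1 shows the widest gap between groups, from 12.9 to 5.45.

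Each member was also set beside its neighbours on the chromosome, up to 20 nearest tested genes of at least 1 CPM, up to 10 on each side. SLC1A1 had 19. Of the 23 members above 1 CPM that passed the test, 13 had neighbours with a median within 0.1 of 0 on the log2 scale, 5 had neighbours shifted by at least 0.1 in their own direction, and 5 in the opposite direction. The genes that moved with their neighbours were SLC6A15 (0.69 beside a neighbour median of 0.74), SLC7A6 and SLC7A6OS (−0.61 and −0.34 beside −0.45), SLC38A7 (−0.37 beside −0.50) and SLC6A8 (−0.07 beside −0.17). The part of the surrounding stretch in the changes of those 5 was not tested.

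Among the genes that moved against their neighbours were SLC38A1 and SLC38A2, which fell by 0.29 and 0.43 on the log2 scale in a stretch of chromosome 12 whose neighbour median was 0.34. SLC38A4, from the same cluster, fell there too. SLC1A4 rose by 0.34 beside a neighbour median of −0.29, SLC7A5 by 0.11 beside −0.17, and SLC38A3 fell by 0.69 beside 0.12. Among those in unshifted surroundings, SLC7A11 (0.67 beside 0.07), SLC6A9 (0.64 beside 0.09), SLC1A1 (−1.24 beside 0.09) and SLC43A2 (−0.63 beside 0.01) were far from their neighbours. In all, 7 of the 13 members that rose lay at least 0.3 above their neighbours and 6 of the 10 that fell lay at least 0.3 below them. Such counts were not made for all genes tested, so they cannot be read as a trait of the members. SLC38A1 and SLC38A2 have the same neighbours.

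**Figure D4:**
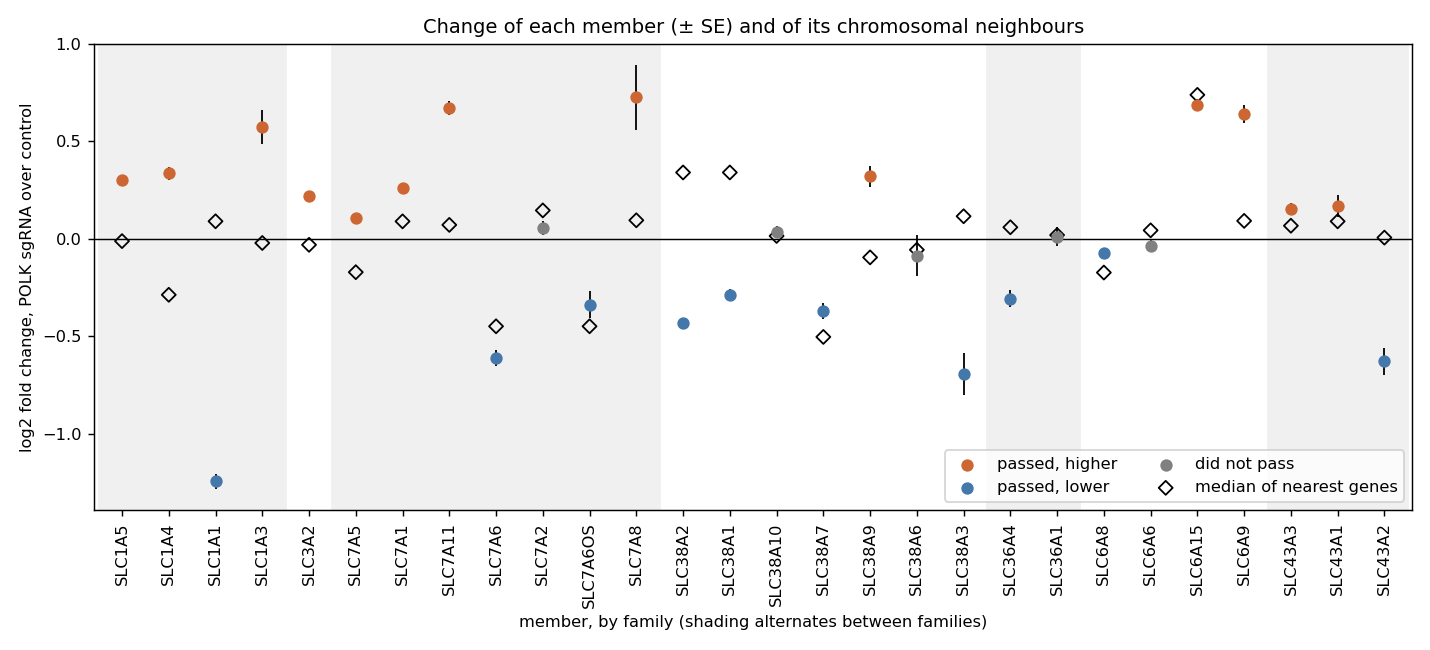
Log2 fold change (POLK sgRNA over control, ± SE) of the 28 members with a mean of at least 1 CPM, by family. Orange marks members that rose, blue those that fell and grey those that did not pass. Open diamonds give the median of up to 20 nearest genes. SLC6A15 sits beside its diamond (0.69 and 0.74), SLC38A1 and SLC38A2 lie below theirs (0.34), and SLC1A1 lies lowest at −1.24.

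Most genes of the response to amino acid shortage were higher. Of 11 such genes, 8 rose and 1 fell (beside 32.8% and 31.6% of all genes tested), and the median of their log2 fold changes was 0.52. The pseudokinase gene TRIB3 rose from 42.0 ± 1.27 to 76.4 ± 2.36 CPM, ASNS, which makes asparagine, from 93.1 ± 3.55 to 141 ± 1.87 CPM, and CEBPG, a partner of ATF4, from 34.6 ± 0.291 to 44.1 ± 0.973 CPM. TRIB3 and DDIT3 (log2 fold change 0.66) lie among raised neighbours, with medians of 0.61 (over 14 genes) and 0.69. Against 1.5-fold, TRIB3, NUPR1 and CHAC1 passed upward, beside 5.38% of all genes tested. CHAC1, which degrades glutathione, passed narrowly (glmTreat adjusted p = 0.038) and went from 5.30 ± 0.493 to 10.2 ± 1.79 CPM. Its POLK sgRNA library 1 stood highest, at 12.2 CPM beside 9.49 and 8.84 CPM in libraries 2 and 3. NUPR1 was low, at 0.344 ± 0.128 CPM in control and 1.10 ± 0.123 CPM in POLK sgRNA libraries. EIF2AK4, the gene of the kinase GCN2 that senses uncharged tRNA, fell by 0.07 on the log2 scale (edgeR adjusted p = 0.012). CEBPB and SESN2 did not pass, and SESN2, a leucine sensor that ATF4 can induce, had 29.2 ± 0.617 and 29.03 ± 1.35 CPM.

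Genes of amino acid sensing and use held none that passed against 1.5-fold, and the share that passed the plain test was near or below the 64.3% of all genes tested. Of 20 genes that connect amino acids to mTORC1, 7 rose, 4 fell and 9 did not pass, and the median of their log2 fold changes was 0.03. The sestrin genes SESN3 and SESN1 fell by 0.37 and 0.22 on the log2 scale, as did FNIP2 and the Rag gene RRAGB, by 0.29 and 0.35, while NPRL2 and LAMTOR1 rose by 0.27 and 0.15. Of 15 genes that use imported glutamine, cystine or branched-chain amino acids, 6 rose, 4 fell and 5 did not pass. GSS, which completes glutathione, rose from 114 ± 1.78 to 145 ± 3.69 CPM, and GCLM, a subunit of the enzyme that starts it, fell from 44.8 ± 1.85 to 35.4 ± 0.609 CPM. GLUD1 and GOT2, which convert glutamate to a fuel of mitochondria, fell by 0.13 and 0.51 respectively (log2), and GOT2 and GLUD1 have lowered neighbours (medians −0.49 and −0.13), whereas those of GSS are raised (0.25).

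Of 14 tested amino acid carriers of other families, 3 rose, 3 fell and 8 did not pass, beside 64.3% of all genes that passed, and their median log2 fold change was −0.04. MFSD12, needed for cysteine import into melanosomes and lysosomes, fell from 240 ± 8.58 to 124 ± 9.16 CPM. SLC25A44, the mitochondrial carrier of branched-chain amino acids, fell from 133 ± 2.89 to 83.7 ± 3.37 CPM. Both passed against 1.5-fold, beside 3.86% of all genes tested that did so downward, and the neighbours of neither were shifted by 0.1 (medians −0.08 and 0.02). SLC25A13, a mitochondrial aspartate and glutamate carrier, also fell, by 0.32. SLC25A22, which carries glutamate into mitochondria, rose from 65.8 ± 0.950 to 90.6 ± 0.687 CPM, the lysosomal SLC15A4 rose by 0.38 among raised neighbours (0.52), and SLC25A38, linked to glycine import, rose by 0.13.

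Of 6 tested genes for partners of the transporters, 2 rose, 2 fell and 2 did not pass, near the 64.3% of all genes that passed, with changes of at most 0.14 on the log2 scale among those that passed. CD44, which stabilises xCT at the membrane, rose from 401 ± 5.13 to 425 ± 7.74 CPM, and the ubiquitin ligase gene RNF5, which acts on SLC1A5 and SLC38A2, from 50.5 ± 1.44 to 55.5 ± 0.820 CPM, among raised neighbours (0.24). ARL6IP5, an inhibitor of SLC1A1, fell from 88.8 ± 2.87 to 81.6 ± 1.41 CPM, and the ligase gene NEDD4L fell by 0.10 on the log2 scale. OTUB1 (105 ± 1.47 and 102 ± 3.99 CPM) and TMEM27 (0.208 ± 0.0811 and 0.226 ± 0.0646 CPM) did not pass, although OTUB1 passed without POLK sgRNA library 3 (edgeR adjusted p = 0.0267).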

How the data were processed

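RNA libraries were made from total RNA with the TruSeq RNA V2 kit, per the labels' protocols. The submitters' processing notes name GRCh38 and the tools FastQC, Trimmomatic, STAR and DESeq2; for versions, filters, annotation and counting tool, nothing is stated in these sources. The authors deposited raw counts per gene for 6 libraries, with Ensembl identifiers and symbols, and columns were matched to samples by name.

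From these counts, low genes were removed with filterByExpr of edgeR (at a minimum count of 10 and a minimum total of 15), leaving 13930 of 16934, and scaled by TMM. Groups were compared in R 4.3.3 with edgeR 4.0.16's quasi-likelihood test (two-sided, robust dispersion, group as the only term). P-values were adjusted by Benjamini-Hochberg over all 13930 genes, called at 0.05, and genes were also tested with glmTreat against a fold of 1.5. The standard error was obtained as the size of the log2 fold change divided by the root of the F statistic. CPM use TMM-scaled library sizes. The fit was tested on simulated data. Positions and exon lengths came from GENCODE 29 (GRCh38). Paralogs, pseudogenes and overlapping genes can share reads.

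Members and lists were chosen with earlier results of these data known. Named were, in each family, the 4 members with the smallest p at a mean of at least 1 CPM, members of fixed role groups, and in each pathway list the 3 genes with the smallest p; other pathway genes, and members noted as such, were named after their values were seen. Some listed genes are not reported here by name. Alternatives were DESeq2's size factors, library size alone, no filter, a mean of 1 CPM, DESeq2 1.42.0, the replicate number as a block, each library left out, and stricter symbols.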

Additional observations from a re-analysis of the deposited data

How the results depend on the processing

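Between 13 and 16 members rose and between 10 and 13 fell under all 13 alternatives, and log2 fold changes of the 33 tested members kept direction and side of the threshold in 376 of 391 values, with 7 calls lost and 8 signs turned, the latter only for members that did not pass. The replicate block left 14 higher and 12 lower, with POLK at −0.36, and the 2 members past 1.5-fold in each direction; it changed no call of a member. Same-numbered libraries did not deviate together (correlations of −0.0364, −0.00682 and −0.0419), so the numbers were not used as pairs. Members past 1.5-fold upward were 1 with DESeq2's size factors, 1 with a mean of at least 1 CPM and 1 in DESeq2, and 1 to 3 with a library left out; downward they were 1 with a mean of at least 1 CPM, which leaves SLC38A4 untested, and 3 without a filter. SLC7A3 entered the test, and passed 1.5-fold, without a filter, in DESeq2 and when any 1 control library or POLK sgRNA library 2 was left out. With a library left out, the filter kept SLC7A3 only through the POLK sgRNA libraries, where it was higher. Those calls are no independent support. SLC6A20 entered and passed without a filter and in DESeq2. Lower SLC6 members were 1 with a mean of at least 1 CPM, and 1 to 2 with a library left out; higher SLC43 members 1 to 2 with a library left out; lower SLC7 members 1 when SLC7A6OS was dropped. The median log2 fold change of members was 0.0041 in DESeq2, where it runs over all 53, and 0.0115 to 0.0563 with a library left out. Scaling moved the median of all genes from 0.00829 to 0.00169 with DESeq2's size factors and 0.0240 with library size alone. Signs turned for SLC36A1 (−0.0207 to 0.0516 with a library left out), SLC38A6 (−0.239 to 0.00577), SLC1A2 (−0.343 to 0.0611), SLC6A17 (−0.114 to 0.269), TMEM27 (−0.191 to 0.292) and SESN2 (−0.0459 to 0.0171, and 0.0104 with library size alone), none of which passed. The cause of these moves was not tested. Depth limits the members under 1 CPM, and 3 libraries per group limit all of them.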
